A study of Mus musculus with 54 samples.

Results

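The Rab GTPases are the largest family of small GTP-binding proteins. The data comprised 54 mouse brain arrays, on which 59 Rab genes were measured among 18193 genes. Members were chosen by name alone (the letters Rab followed by a number, with at most 1 letter and 1 further number), so that interacting proteins such as the Rab11 family adaptors stayed out. Each gene was read on the brightest probe set annotated to it alone, by the mean over all arrays, and 38 of the 59 members had at least 1 further probe set. The 59 were also all the Rab genes of the RefSeq gene table used for names. All 59 entered every test, with no filter on low signal, and 9 of them (Rab7b, Rab17, Rab19, Rab20, Rab25, Rab32, Rab38, Rab39 and Rab44) lay below the median probe set.

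The study asked how overexpression of human A53T-alpha-synuclein, a Parkinson's disease mutant, and ageing change gene expression in striatum, brainstem/midbrain and cerebellum. It compared wild-type mice (WT, 22 arrays), which are the FVB/N background strain, with PrPmtA (17 arrays, labelled TgA) and PrPmtB (15 arrays, labelled TgB). In both transgenic lines the prion promoter drives the mutant human gene on top of the mouse gene, so the transgene is not confined to the neurons lost in the disease. Young mice were 6 months old, and each of their 9 combinations of line and region had 2 arrays, 1 female and 1 male. Old mice of both sexes were 20 to 28 months old and gave 4 WT, 2 PrPmtA and 2 PrPmtB arrays of striatum, 6, 4 and 3 of brainstem/midbrain, and 6, 5 and 4 of cerebellum. The 6 old arrays labelled female+male, WT and PrPmtB at 20 months, are taken here as pooled. The level of the transgene was not analysed here.

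Rab proteins switch between a GTP-bound form on a membrane and a GDP-bound form held in the cytosol by GDP dissociation inhibitors. Exchange factors switch them on, GTPase activating proteins switch them off, and the active form recruits effectors such as tethers and motors, so that each Rab marks its own compartment. In neurons Rab3 and Rab27 proteins act in vesicle and granule release, Rab5, Rab4 and Rab11 proteins in early and recycling endosomes, Rab7 and Rab9 proteins in late endosomes and lysosomes, and Rab1, Rab2 and Rab6 proteins between endoplasmic reticulum and Golgi. Several Rabs can counter the trafficking defects that alpha-synuclein causes in model cells, and some are substrates of LRRK2, another Parkinson's disease protein.

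Promoter sequences are shown for the 4 Rab3 genes, close relatives whose region patterns differed (below), and for Rab40b, which had the widest region difference of all members. Each is the 250 bases before the annotated start from RefSeq (GRCm38.p6), 5′ to 3′ on the gene's strand. Capitals mark matches on either strand to the GC box GGGCGG, the TATA box TATAAA and the E-box CAGCTG, where neighbouring GC boxes may share bases.
Rab3a, chr8:70754453-70754702, plus strand: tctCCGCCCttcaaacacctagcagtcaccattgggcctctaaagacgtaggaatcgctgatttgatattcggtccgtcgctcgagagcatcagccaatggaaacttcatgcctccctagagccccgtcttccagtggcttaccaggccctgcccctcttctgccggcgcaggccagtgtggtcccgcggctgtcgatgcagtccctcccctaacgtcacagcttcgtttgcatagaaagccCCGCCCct
Rab3b, chr4:108878820-108879069, plus strand: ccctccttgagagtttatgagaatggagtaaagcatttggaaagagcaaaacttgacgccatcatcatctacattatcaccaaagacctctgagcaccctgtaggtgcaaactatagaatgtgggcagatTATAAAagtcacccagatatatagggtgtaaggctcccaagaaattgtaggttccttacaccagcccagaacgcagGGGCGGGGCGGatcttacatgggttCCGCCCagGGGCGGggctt
Rab3c, chr13:110280207-110280456, minus strand: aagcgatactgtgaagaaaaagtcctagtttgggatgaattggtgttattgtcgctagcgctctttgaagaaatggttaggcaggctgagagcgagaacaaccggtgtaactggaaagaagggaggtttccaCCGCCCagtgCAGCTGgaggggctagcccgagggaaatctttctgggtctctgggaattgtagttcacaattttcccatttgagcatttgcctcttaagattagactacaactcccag
Rab3d, chr9:21918184-21918433, minus strand: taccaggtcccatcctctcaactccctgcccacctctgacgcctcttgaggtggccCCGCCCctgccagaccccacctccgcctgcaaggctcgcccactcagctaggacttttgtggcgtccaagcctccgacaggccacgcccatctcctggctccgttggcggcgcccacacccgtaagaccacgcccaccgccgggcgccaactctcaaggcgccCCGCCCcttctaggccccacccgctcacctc
Rab40b, chr11:121388252-121388501, minus strand: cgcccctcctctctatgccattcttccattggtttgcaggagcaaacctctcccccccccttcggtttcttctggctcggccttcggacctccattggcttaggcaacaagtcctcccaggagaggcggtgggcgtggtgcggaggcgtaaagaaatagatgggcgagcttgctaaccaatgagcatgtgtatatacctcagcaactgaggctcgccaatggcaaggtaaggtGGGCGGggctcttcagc

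Of the 59 members, 48 had a promoter in the table, and Rab4a, Rab26 and Rab36 did not. These 48 genes had 60 promoters between them, some genes having several. A GC box lay in 40 of the 60 (66.7%), against 32.7% of all 32851 promoters of that length. The Rab3b promoter shown above held 4 GC boxes and, alone among those 5, a TATA box. TATA boxes were found in 4 of the 60 (6.67%, against 12.4% of all promoters) and E-boxes in 9 (15%, against 13%). The cAMP response element TGACGTCA was found in 2 of the 60 (3.33%, against 1.55%).

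Levels are given as log2 signals, so a difference of 1 is a doubling, and levels were compared between groups within a gene, not between genes. The dissections matched their labels: the dopamine receptor Drd1 averaged 10.99 in striatum, 3.98 in brainstem/midbrain and 3.21 in cerebellum, the Purkinje cell gene Pcp2 13.97 in cerebellum against 6.37 or less elsewhere, and the dopamine transporter Slc6a3 9.82 in brainstem/midbrain, while Chat, the marker of cholinergic neurons, was at 2.33 to 2.36 in all 3 regions, striatum included. Region markers differed among arrays, though. A list of 7 brainstem/midbrain neuron markers had a mean log2 signal of 6.75 to 7.25 on the 6-month brainstem/midbrain arrays. It was 4.65 to 6.34 on the 9 arrays of 20 to 22 months, and 7.50 to 7.66 on the 4 arrays of 26 and 28 months. Cerebellar neuron markers were at 7.81 to 8.79 on the 6 young brainstem/midbrain arrays, at 6.47 to 7.26 on the 7 of the second array series and at 7.52 to 9.36 on the 6 of the third. Cortical neuron markers were at 4.97 to 5.59 on the 2 striatum arrays of the second array series and at 6.77 to 9.41 on the other 12. Whether dissection, age or array series lay behind these marker differences was not tested. The 3 PrPmtA arrays of 28 months are labelled female, yet had 6.01 to 7.02 for the Y-linked Eif2s3y, against 2.76 to 3.23 on the other 30 arrays labelled female. The 3′ minus 5′ signal of the Gapdh control probe sets, a sign of RNA quality, had medians of -0.37, -0.37 and -0.32 in the 3 array series. On 5 old arrays of the second series, though (WT brainstem/midbrain replicates 2 and 3, PrPmtB brainstem/midbrain replicates 1 and 2 and PrPmtB striatum replicate 1), it was above -0.1, and the same signal of the Actb controls was above 2 on these and on 3 young arrays (PrPmtA brainstem/midbrain replicate 1, PrPmtB brainstem/midbrain replicate 1 and PrPmtA cerebellum replicate 2), against medians of 1.45, 1.46 and 1.42 in the 3 series.

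The Rab genes differed between brain regions about as often as other genes. Averaged over lines and ages, 47 of the 59 members were called in at least 1 of the 3 comparisons of regions (79.7%, against 78.6% of all probe sets and 82.8% of all genes) and 21 in all 3 (35.6%, against 21.1% and 28.2%). A probe set was called where limma's moderated F-test and its nested step passed a false discovery rate of 0.05. The adjusted p-values below come from limma with Benjamini-Hochberg adjustment within a single comparison, and since the call also weighs the other comparisons, a called difference may have an adjusted p above 0.05 and the reverse. Striatum against cerebellum gave 16 members higher (27.1%, against 41.1% of all 45037 probe sets and 41.4% of all genes, each on its brightest probe set) and 22 lower (37.3%, against 23.1% and 27.5%). Striatum against brainstem/midbrain gave 13 higher (22%, against 42% of probe sets and 38.6% of genes) and 25 lower (42.4%, against 21.2% and 28.6%). Brainstem/midbrain against cerebellum gave 24 higher (40.7%, against 19.9% and 26.8%) and 14 lower (23.7%, against 24% and 25%). The median size of the difference in the members was 0.24, 0.33 and 0.22, against 0.20, 0.18 and 0.18 over all genes. With their sign, the medians were 0.02, -0.07 and 0.10 in the members and 0.03, 0.03 and -0.01 over all genes. Over the 22518 brightest probe sets, which held 50 of the 59 members, they were -0.09, -0.07 and -0.03. By mean level, the highest region was the brainstem/midbrain for 26 members, the striatum for 20 and the cerebellum for 13. The highest region was called above both others for 16, 9 and 10 of these. The same counts were not made over all genes, so this order is not read as particular to Rab genes.

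**Figure D1:**
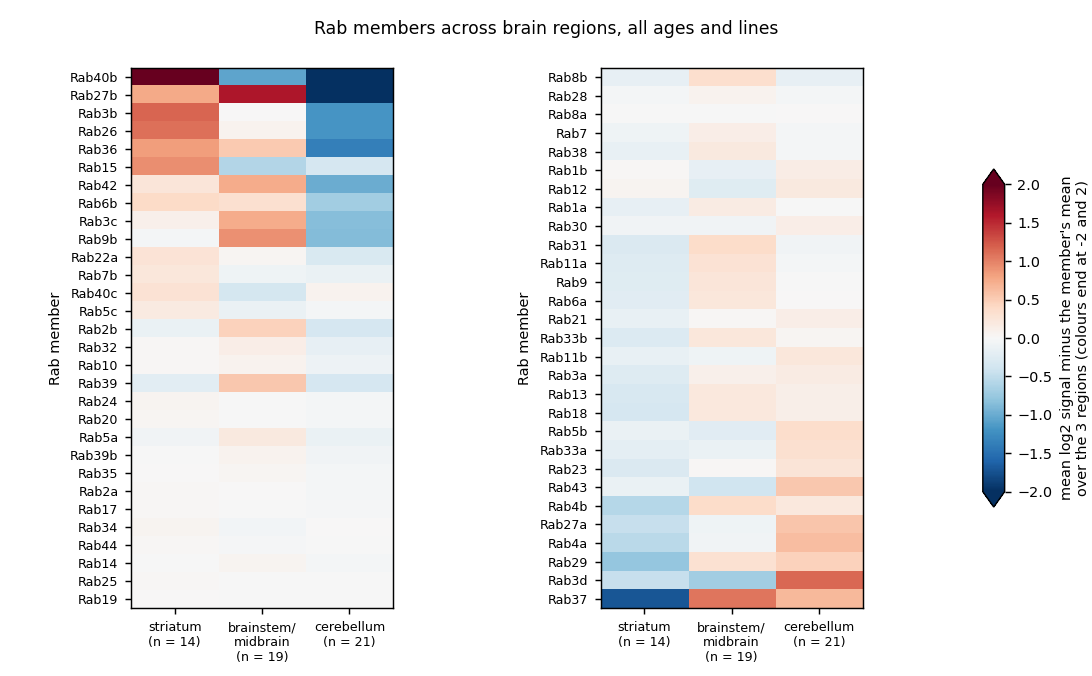
Mean log2 signal of each of the 59 Rab members in striatum (14 arrays), brainstem/midbrain (19) and cerebellum (21), minus the member's own mean over the 3 regions (red, higher; blue, lower; colours end at -2 and 2), ordered by striatum minus cerebellum. Rab40b, Rab27b, Rab3b, Rab36 and Rab26 head the list and Rab37 and Rab3d close it.

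The striatum stood out most for Rab40b, a Rab with a SOCS box that joins a ubiquitin ligase complex. Its signal ran from 8.85 to 10.6 (median 10.05) over the 14 striatum arrays, from 5.27 to 6.46 (median 5.66) over the 19 of brainstem/midbrain and from 3.59 to 5.67 (median 4.73) over the 21 of cerebellum. The striatum arrays overlapped with neither of the other regions. Rab40b was higher by 5.25 (SE 0.15) than in cerebellum and by 4.27 (SE 0.15) than in brainstem/midbrain (limma, adjusted p = 6.69e-28 and 2.87e-24), and its second probe set gave 3.60 (SE 0.07) in both comparisons. On the second set the medians were 6.30 in striatum and 2.54 and 2.52 in the other regions, near the low end of all signals. Its relative Rab40c was at 8.50 to 9.11 in striatum and 7.76 to 8.52 in brainstem/midbrain, a difference of 0.65 (SE 0.07, adjusted p = 8.61e-10).

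The genes of vesicle and granule release differed in their regional order. Rab3a, the most studied of the synaptic vesicle Rabs, differed little, with striatum lower by 0.26 (SE 0.08) than cerebellum and by 0.24 (SE 0.08) than brainstem/midbrain (limma, adjusted p = 0.00514 and 0.00926). Its second probe set did not show this (0.11 and 0.01, adjusted p = 0.143 and 0.892). Rab3b was at 8.10 to 8.94 (median 8.52) in striatum, 6.78 to 8.73 (median 7.35) in brainstem/midbrain and 5.63 to 6.84 (median 6.13) in cerebellum. The striatum and cerebellum arrays of Rab3b did not overlap, and the difference was 2.43 (SE 0.13, adjusted p = 4.93e-19). Rab3c was highest in brainstem/midbrain, by 1.64 (SE 0.10) over cerebellum and 0.69 (SE 0.11) over striatum (adjusted p = 7.4e-17 and 1.37e-06), although 1 of its 4 other probe sets was called the other way against striatum. Unlike Rab3b, Rab3d was highest in cerebellum, at 5.09 to 6.28 (median 5.66). It was at 3.37 to 4.49 (median 4.04) in striatum and 3.52 to 4.04 (median 3.72) in brainstem/midbrain. Like Rab3b, Rab3d was higher in striatum than in brainstem/midbrain, by 0.26 (SE 0.09). Every cerebellum array of Rab3d lay above every other array (difference from striatum 1.57, SE 0.09, adjusted p = 1.35e-17).

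Rab27b, which acts in granule release, and its relative Rab27a were highest in different regions. Rab27b was at 7.68 to 8.70 (median 8.19) in striatum, 8.60 to 9.51 (median 8.95) in brainstem/midbrain and 3.95 to 5.70 (median 5.02) in cerebellum. The cerebellum arrays were apart from all others, by 3.24 (SE 0.11) from striatum and 4.04 (SE 0.10) from brainstem/midbrain (limma, adjusted p = 5.89e-26 and 1.61e-29). Rab27a instead was highest in cerebellum, at 6.51 to 7.45 (median 7.09) against 5.25 to 6.52 (median 6.07) in striatum, with 1.02 (SE 0.10) between them (adjusted p = 7.43e-11). Rab26, a secretory granule Rab, was at 5.72 to 6.95 in striatum, 4.10 to 6.22 in brainstem/midbrain and 3.69 to 5.05 in cerebellum, with 2.34 (SE 0.14) between striatum and cerebellum and no overlap of these 2 regions (adjusted p = 2.4e-17). Rab37, likewise known from secretory granules, was the member most reduced in striatum. It was at 3.66 to 5.05 there (median 4.68), against 6.66 to 8.01 in brainstem/midbrain and 6.45 to 7.39 in cerebellum, again without overlap (differences 2.82 and 2.38, SE 0.13 for both, adjusted p = 1.45e-20 and 9.59e-19).

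**Figure D2:**
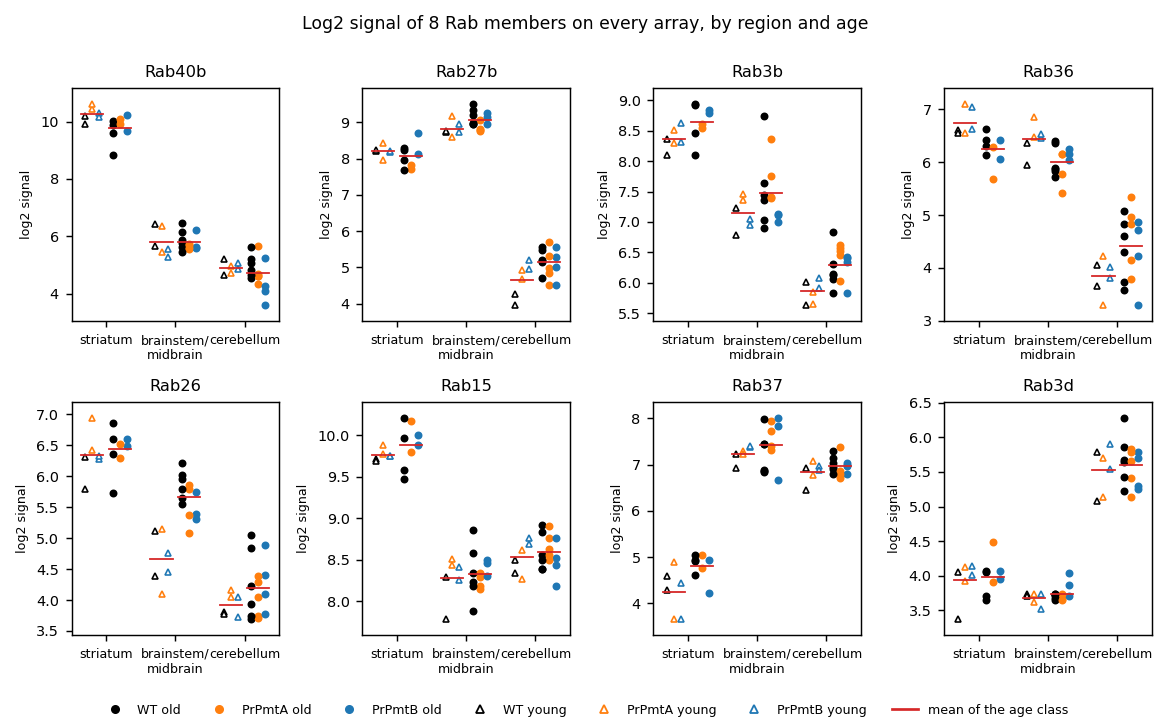
Log2 signal of Rab40b, Rab27b, Rab3b, Rab36, Rab26, Rab15, Rab37 and Rab3d on every array, by region (triangles, young; circles, old; colours, lines; red bars, mean of the age class in the region). In striatum Rab40b lies at 8.85 or above, over all arrays of the other regions, while Rab37 lies at 5.05 or below, under all of them.

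Of the endosomal members, Rab4a, a recycling Rab, was lowest in striatum and highest in cerebellum. It was at 7.97 to 9.23 (median 8.66) in striatum, 8.26 to 9.71 (median 9.19) in brainstem/midbrain and 9.12 to 10.21 (median 9.89) in cerebellum, and its 2 probe sets differed between striatum and cerebellum by 1.03 and 0.97 (SE 0.07 and 0.09). Rab4b was lower in striatum by 0.86 than in brainstem/midbrain and by 0.76 than in cerebellum (SE 0.09 for both). Rab15, which acts in endosomal recycling, was at 9.48 to 10.2 in striatum and at no more than 8.92 on any other array, with differences of 1.53 and 1.28 (SE 0.08 for both; limma, adjusted p = 1.49e-18 and 1.09e-16). Rab5a was higher in brainstem/midbrain than in the other regions by 0.31 and 0.33 (SE 0.06), and Rab5c was higher in striatum by 0.47 than in brainstem/midbrain (SE 0.11) and by 0.30 than in cerebellum (SE 0.11).

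Late endosome and Golgi members made up much of the rest. Rab36, of late endosomes and Golgi, was at 5.69 to 7.10 (median 6.49) in striatum and 5.41 to 6.85 (median 6.15) in brainstem/midbrain, but at 3.29 to 5.34 (median 4.23) in cerebellum, apart from both. Its difference between striatum and cerebellum was 2.35 (SE 0.16, adjusted p = 1.02e-15), and striatum and brainstem/midbrain differed by 0.25 (adjusted p = 0.175 by limma). Rab9b, which returns cargo from late endosomes to the Golgi, was highest in brainstem/midbrain at 9.01 to 9.78, by 1.70 over cerebellum and 0.93 over striatum (SE 0.08 for both). Rab6b, the neuronal form of a Golgi Rab, was at 10.8 to 11.3 in cerebellum and at 11.6 to 12.5 elsewhere, with no overlap and differences of 1.10 and 1.09 (SE 0.06). Rab42 was lowest in cerebellum too, by 1.58 (SE 0.11) under brainstem/midbrain, while Rab43 and Rab33a were highest there, by 0.81 (SE 0.08) and 0.54 (SE 0.06) over brainstem/midbrain. Rab29, the LRRK2 partner at the Golgi, was lower in striatum by 1.18 than in cerebellum and by 0.95 than in brainstem/midbrain (SE 0.17 for both; adjusted p = 1.84e-07 and 1.07e-05).

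Members of the basal secretory and endosomal routes varied in this respect. Rab2a, of transport from endoplasmic reticulum to Golgi, was at 11.83 to 12.43 over all 54 arrays and was called in no comparison of regions. Rab1a and Rab6a were both lowest in striatum, by 0.35 (SE 0.04) and 0.47 (SE 0.05) under brainstem/midbrain (limma, adjusted p = 1.3e-08 and 1.41e-10). Among recycling Rabs, Rab11a was lower in striatum than in brainstem/midbrain by 0.46 (SE 0.08) and Rab11b lower than in cerebellum by 0.24 (SE 0.09), while Rab5b, of early endosomes, was lower than in cerebellum by 0.42 (SE 0.18, adjusted p = 0.0373). Of the Rabs linked to Parkinson's disease, Rab32 and Rab39b were called in no comparison of regions, and the LRRK2 substrate Rab10 only between brainstem/midbrain and cerebellum (0.24, SE 0.08). Rab12, another LRRK2 substrate, was lower in brainstem/midbrain by 0.35 than in striatum and by 0.47 than in cerebellum (SE 0.08 and 0.07). Rab35 differed by 0.11 (SE 0.05) between striatum and cerebellum.

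These regional differences were also read within each age class. The calls averaged these same young and old arrays, so like signs were in part fixed beforehand. Of the 38 members called in each of the 3 comparisons, 36, 37 and 36 had the same sign in young and in old arrays. In both age classes, 24, 24 and 23 were called the same way, and the share over all genes was not counted. Rab40b, the member with the widest region difference, differed between striatum and cerebellum by 5.36 in young and 5.15 in old mice. Among the 38 members with a second probe set, that set was called the same way for 16 of 24, 8 of 23 and 14 of 27 called members, and the other way for 1, 3 and 3. For Rab27b the second set gave striatum minus brainstem/midbrain as 0.13 in place of -0.80. In bulk tissue a smaller share of a cell type and less RNA in each of its cells cannot be told apart.

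On the brightest probe set, old mice had more Rab3a and Rab4a signal than young mice in every line and region, and less Rab5a in nearly all. The second Rab3a probe set was called in no region (below). Rab3a and Rab4a were the only members called higher in all 9 comparisons of old with young (3.39%, against 1.27% of probe sets and 2.02% of genes), and no member was called lower in all 9, against 0.706% and 0.577%. With each comparison called separately, 0 members were called in all 9. Young and old arrays belong to different array series, and the effects of age and of array series cannot be told apart. In striatum 5 members (Rab3a, Rab4a, Rab7, Rab31 and Rab33a) were called higher in all 3 lines (8.47%, against 4.39% of probe sets and 7.1% of genes) and 1, Rab5a, lower (1.69%, against 22.3% and 17.2%). In brainstem/midbrain 10 members were called higher in all 3 lines (16.9%, against 5.53% and 9.15%) and again Rab5a alone lower (against 5.1% and 3.16%). In cerebellum 4 members were called higher (6.78%, against 4.88% and 7.65%, a smaller share than among all genes) and Rab14 alone lower (against 16.7% and 12.5%). Of the 59 members, 29 were called in at least 1 of the 9 comparisons (49.2%, against 64.7% and 63.1%). Chosen after seeing the data, a fit without the 5 arrays of high Gapdh control signal gave 7, 3 and 5 members called the same way in all 3 lines of striatum, brainstem/midbrain and cerebellum, a fit without the 8 arrays of high Actb control signal 5, 3 and 4, against 6, 11 and 5 with all arrays. The median change over lines was 0.04, 0.12 and 0.04 in the 3 regions, against -0.04, -0.01 and -0.05 over all genes. Over the 22518 brightest probe sets, which held 50 of the 59 members, it was 0.07, 0.05 and 0.07. The deposited scale itself put the median probe set lower in old arrays by 0.06.

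**Figure D3:**
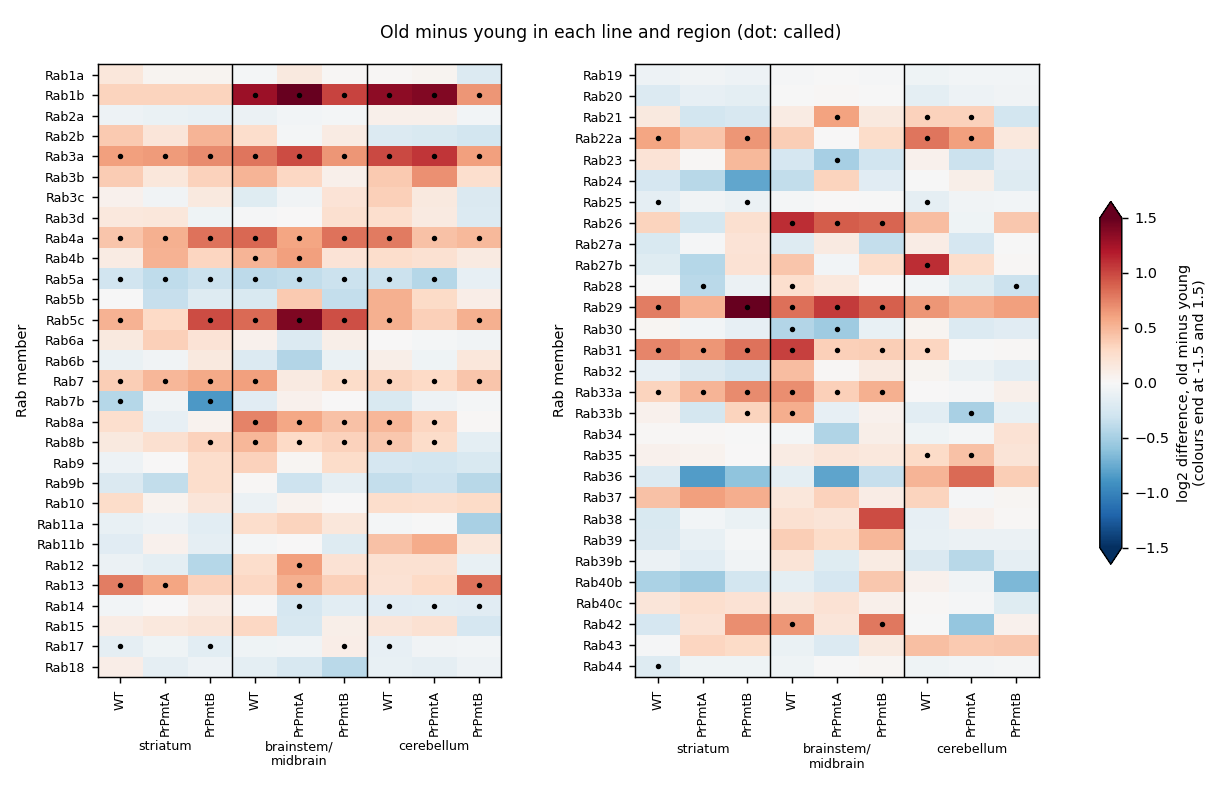
Log2 difference, old minus young, of the 59 Rab members in each line and region (red, higher in old; blue, lower; colours end at -1.5 and 1.5). Dots mark called differences; Rab3a and Rab4a have a dot in all 9 columns and Rab5a in 8.

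Rab3a is a GTPase of synaptic vesicles that acts with RIM and rabphilin at release sites. In brainstem/midbrain it was at 10.49 to 10.98 (median 10.80) on the 6 young arrays and 11.31 to 11.93 (median 11.59) on the 13 old ones. In cerebellum the values were 10.45 to 11.05 (median 10.80) and 11.33 to 11.93 (median 11.65). Young and old arrays did not overlap in either region. In striatum they did, at 10.45 to 10.83 and 10.63 to 11.62, where the lowest old array was WT of 22 months. The rise was 0.80, 0.98 and 0.66 in WT, PrPmtA and PrPmtB brainstem/midbrain (limma, adjusted p = 0.00122, 0.000273 and 0.0313), 0.99, 1.07 and 0.61 in cerebellum, and 0.61, 0.64 and 0.71 in striatum. Without the 8 arrays of high Actb control signal the PrPmtB brainstem/midbrain value was 0.39 and not called. The second Rab3a probe set was not called in any region: over the 3 lines it gave 0.14, -0.16 and -0.03 in striatum, brainstem/midbrain and cerebellum (SE 0.10, 0.09 and 0.09), against 0.65, 0.81 and 0.89 for the first.

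Rab4a returns cargo from early endosomes to the cell surface. It was at 8.26 to 8.93 on young and 8.999 to 9.71 on old brainstem/midbrain arrays, and at 9.12 to 9.54 and 9.78 to 10.21 in cerebellum, without overlap in either. In striatum young arrays were at 8.18 to 8.68 and old ones at 7.97 to 9.23, the lowest being the same WT array of 22 months. The rise was 0.87, 0.60 and 0.81 in WT, PrPmtA and PrPmtB brainstem/midbrain (SE 0.16, 0.17 and 0.18), 0.78, 0.44 and 0.49 in cerebellum, and 0.42, 0.53 and 0.81 in striatum, where the WT value was 0.62 without that WT array. Here both probe sets moved alike, by 0.58 and 0.53 in striatum, 0.76 and 0.70 in brainstem/midbrain and 0.57 and 0.52 in cerebellum (adjusted p of the second set 0.0016, 2.86e-05 and 0.000464 by limma).

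The early endosome pair Rab5a and Rab5c changed in opposite directions. Rab5a was at 11.29 to 11.42 (median 11.36) on young striatum arrays and at 10.67 to 11.22 (median 11.05) on old ones, without overlap, and it fell by 0.29, 0.38 and 0.32 in WT, PrPmtA and PrPmtB. The fall was 0.40, 0.37 and 0.32 in brainstem/midbrain and 0.32 and 0.43 in WT and PrPmtA cerebellum, with -0.12 in PrPmtB cerebellum not called. Adjusted p-values were above 0.05 in 6 of these 8 called comparisons. By array series the mean in cerebellum was 11.32 in the first (young), 10.89 in the second and 11.21 in the third, where the third, at 11.03 to 11.37, overlapped with the first, at 11.18 to 11.46, and in brainstem/midbrain it was 11.68, 11.20 and 11.48. Single arrays decided several of these calls: without PrPmtA striatum old replicate 2 the value there was -0.13, without PrPmtB striatum old replicate 1 it was -0.18, and without PrPmtA brainstem/midbrain young replicate 1 it was -0.24, none of them called. The calls in WT striatum, PrPmtB striatum and PrPmtB brainstem/midbrain were lost without any 1 of 2, 3 and 2 arrays. Rab5c rose in 7 of 9 comparisons, most in brainstem/midbrain, from 5.82 to 6.83 on young to 7.002 to 7.99 on old arrays (0.84, 1.40 and 0.97 in the 3 lines, SE 0.25, 0.26 and 0.27). Both genes had 1 probe set, so that no second set could be compared.

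Rab1b, which acts in transport from endoplasmic reticulum to Golgi, changed in brainstem/midbrain and cerebellum. It went from 6.32 to 7.54 on young to 7.80 to 8.51 on old brainstem/midbrain arrays and from 6.21 to 7.79 to 7.97 to 8.65 in cerebellum. The groups did not overlap in either region, and the rise was 1.28, 1.54 and 1.01, and 1.35, 1.39 and 0.67, in WT, PrPmtA and PrPmtB. Without PrPmtB brainstem/midbrain young replicate 1 the rise of 1.01 became 0.50 and was not called, without PrPmtA cerebellum young replicate 2 the rise of 1.39 became 0.64, and the call in PrPmtB cerebellum was lost without any 1 of 3 arrays. Both named arrays were among those of high Actb control signal, and without all 8 of these the 2 values were 0.32 and 0.64 and not called. In striatum Rab1b was not called (0.33, 0.33 and 0.34, SE 0.32, 0.37 and 0.37). There the WT array of 22 months, at 6.74, lay below all young arrays (7.36 to 7.93).

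**Figure D4:**
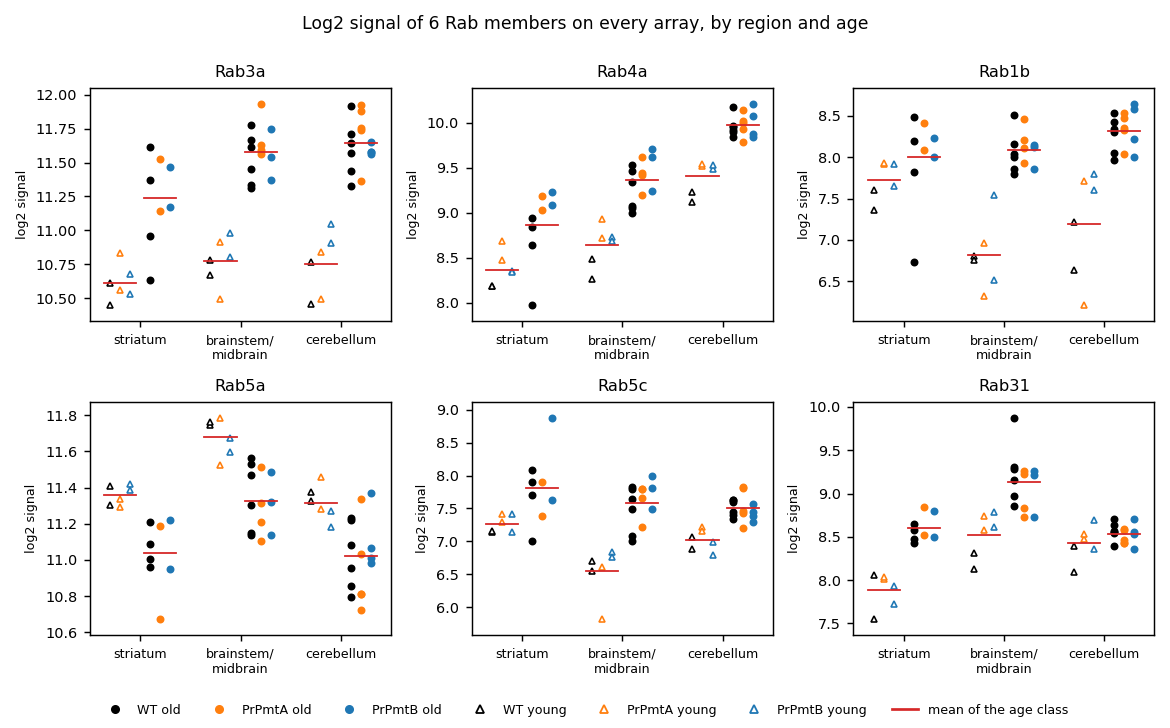
Log2 signal of Rab3a, Rab4a, Rab1b, Rab5a, Rab5c and Rab31 on every array, by region (triangles, young; circles, old; colours, lines; red bars, mean of the age class in the region). Old arrays of Rab3a, Rab4a and Rab1b lie above all young ones in brainstem/midbrain and cerebellum, and in striatum 1 old WT array lies low for each.

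Rab7, the Rab of late endosomes and lysosomes, rose in 8 of 9 comparisons, by 0.37, 0.49 and 0.57 in the striatum of WT, PrPmtA and PrPmtB and by 0.33, 0.30 and 0.42 in cerebellum, where the PrPmtA value was 0.11 and not called without PrPmtA young replicate 1 and the WT value was 0.22 without WT young replicate 1. In striatum it was at 10.68 to 11.02 on young and 11.15 to 11.47 on old arrays, without overlap. Rab31, of traffic between Golgi and endosomes, went from 7.55 to 8.06 on young to 8.43 to 8.85 on old striatum arrays, also without overlap, and rose by 0.73, 0.66 and 0.82 (0.48 in WT without WT young replicate 1). In brainstem/midbrain Rab31 rose by 1.02 in WT but 0.35 and 0.37 in PrPmtA and PrPmtB, and in cerebellum PrPmtB had 0.01 (SE 0.18). Rab33a, a Golgi Rab, rose by 0.33, 0.51 and 0.71 in striatum and 0.70, 0.36 and 0.54 in brainstem/midbrain. Its striatum calls were lost without any 1 of 2 arrays in WT (0.20 without WT young replicate 1) and without PrPmtA young replicate 1 in PrPmtA. The second Rab7 and Rab31 probe sets were not called in striatum, with 0.14 (SE 0.17) for Rab7 and -0.67 (SE 0.38) for Rab31 over the 3 lines, against 0.48 and 0.74.

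The other members called higher in all 3 lines of brainstem/midbrain were Rab26, Rab29, Rab8a and Rab8b, the last 2 being Rabs of transport to the cell surface. Rab26 went from 4.10 to 5.14 on young to 5.09 to 6.22 on old arrays (1.11, 0.91 and 0.87 in the 3 lines) and Rab29 from 4.28 to 5.02 to 4.54 to 6.65 (0.83, 1.05 and 0.90, SE 0.37, 0.40 and 0.42). In WT, PrPmtA and PrPmtB there were 1, 2 and 4 arrays whose removal alone lost the Rab26 call (0.39 in PrPmtA without PrPmtA young replicate 2) and 1, 1 and 2 that lost the Rab29 call, and the PrPmtB calls were also lost without the 5 arrays of high Gapdh control signal (1.14 and 0.15). Rab8a rose by 0.75, 0.58 and 0.44 and Rab8b by 0.50, 0.30 and 0.34. Rab14, of Golgi and endosomes, was at 12.37 to 12.65 on young and 12.19 to 12.50 on old cerebellum arrays, and fell by 0.16, 0.16 and 0.18 (limma, adjusted p = 0.0806, 0.131 and 0.194). The 3 calls were lost without any 1 of 8, 18 and 9 arrays, and the PrPmtA value was -0.022 without PrPmtA cerebellum young replicate 2. Its second probe set rose there instead, by 0.42, 0.55 and 0.56 (limma, adjusted p = 0.019, 0.0126 and 0.0211). Rab36, seen above to be low in cerebellum, was not called in any of the 9 comparisons, with -0.21, -0.84 and -0.61 in striatum and 0.50, 0.85 and 0.37 in cerebellum. Averaged over the 3 lines it was called lower in striatum (-0.55) and brainstem/midbrain (-0.43) and higher in cerebellum (0.58). The adjusted p-values of these averages were 0.0527, 0.138 and 0.0196 by limma. In the 9 comparisons of age, Rab1a, Rab2a, Rab5b, Rab6a, Rab10, Rab11a, Rab11b, Rab32 and Rab39b were called in none, Rab12 in 1 and Rab35 in 2, the last 2 higher in old mice.

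Second probe sets gave a mixed account of age. Over the 3 lines, 14, 14 and 13 of the 38 members with a second set were called on the brightest set in striatum, brainstem/midbrain and cerebellum. The second set had the same sign for 8, 4 and 7 of these, was called the same way for 3, 3 and 2, and the other way for 1, 4 and 4.

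**Figure D5:**
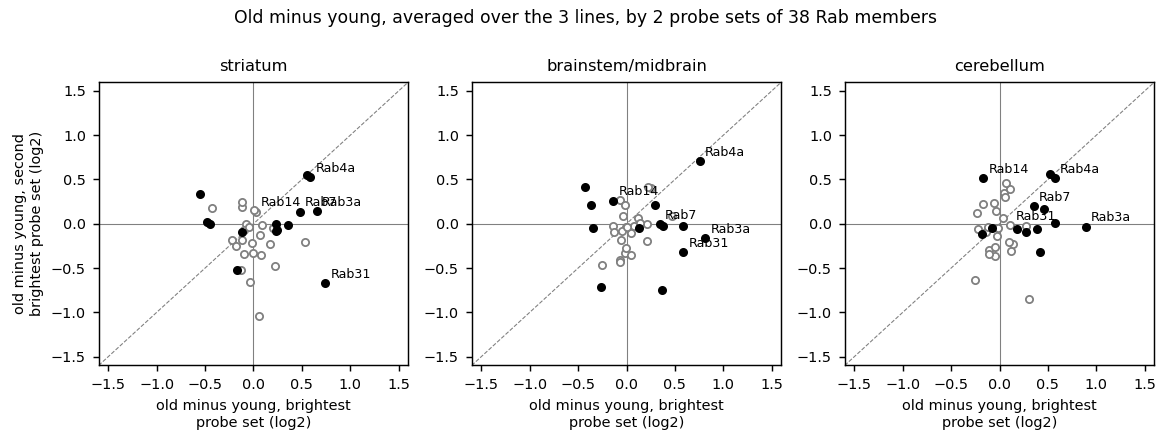
Log2 difference, old minus young, averaged over the 3 lines, on the brightest (horizontal axis) and second brightest (vertical axis) probe set of 38 Rab members in each region (filled, called on the brightest set; dashed, equal change). Rab4a lies near the dashed line in all 3 regions, while Rab3a, Rab31 and, in cerebellum, Rab14 lie away from it.

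Cell type markers moved with age as well. The mean log2 signal of 7 microglia markers was 7.38 to 7.64 on young and 8.09 to 9.26 on old striatum arrays, 6.24 to 6.88 and 7.62 to 9.16 in brainstem/midbrain, and 5.29 to 5.67 and 6.76 to 7.87 in cerebellum, with 2, 5 and 4 of the 7 called higher in all 3 lines. The 5 astrocyte markers went from 8.97 to 9.35 to 9.74 to 10.9, from 10.1 to 10.4 to 10.5 to 11.3, and from 10.1 to 10.7 to 11.2 to 11.6, with 2 of 5 called in each region. Of 6 oligodendrocyte markers 2, 1 and 2 were called higher, and of 4 endothelial markers 0, 0 and 3. The part of these cells in the age changes of the Rab genes was not tested. Since brainstem/midbrain markers differed among old arrays, the changes there were also read on some of them only. With old arrays of 26 and 28 months, which WT and PrPmtA have, 12 members were called the same way in both lines. With those of 20 to 22 months there were 8, and with all old arrays 13. The share over all genes was not counted for these sets. Of the 12, 7 were also among the 13 and 4 among the 8. Rab1b, Rab3a, Rab4a and Rab5c were called in all 3 sets. Rab26 was not called with 26 and 28 months only (0.92 and 0.96 in WT and PrPmtA; limma, adjusted p = 0.112 and 0.121), nor was Rab5a (-0.24 in both).

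For genotype, 1 member was called the same way in both transgenic lines. Rab4a was higher by 0.32 in PrPmtA (SE 0.07, adjusted p = 0.0292 by limma) and by 0.29 in PrPmtB (SE 0.07, adjusted p = 0.0757), averaged over regions and ages. That is 1 of 59 members (1.69%), against 0.0155% of probe sets and 0.022% of genes (4 of 18193) called higher in both lines. The member share rests on 1 gene, known from earlier results of these data, so it is not read as an excess among Rab genes. No member was called lower in both, against 0.118% and 0.0605%. Both lines share the WT arrays. At an unadjusted p under 0.05 there were 5 members in PrPmtA and 9 in PrPmtB (8.47% and 15.3%, against 16.3% and 14.2% of probe sets).

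Rab4a was read array by array in each line. In striatum the 2 young WT arrays were both at 8.18, the PrPmtA arrays at 8.47 and 8.68 and the PrPmtB arrays at 8.34 and 8.35. In brainstem/midbrain young WT was at 8.26 and 8.49, PrPmtA at 8.71 and 8.93 and PrPmtB at 8.69 and 8.73, and in cerebellum at 9.12 and 9.23, 9.52 and 9.54, and 9.49 and 9.53. Thus all 12 young transgenic arrays lay above the WT arrays of their region. Young arrays of the different regions share array codes, though, so these are not 12 independent comparisons. Old arrays overlapped in brainstem/midbrain, at 8.999 to 9.53 in WT, 9.19 to 9.62 in PrPmtA and 9.24 to 9.71 in PrPmtB, and in cerebellum, at 9.84 to 10.17, 9.78 to 10.14 and 9.84 to 10.21. In old striatum WT (20 to 28 months) was at 7.97 to 8.94. PrPmtA (26 and 28 months) was above it at 9.03 and 9.18, and PrPmtB (20 and 22 months) at 9.08 and 9.23. Whether the line difference depended on age was tested and not called for Rab4a in any region.

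The Rab4a call was not firm. Its second probe set gave 0.22 (adjusted p = 0.229) and 0.26 (adjusted p = 0.23), not called in either line. Within single regions the difference was 0.45 and 0.36 in striatum, 0.31 and 0.31 in brainstem/midbrain and 0.19 and 0.19 in cerebellum for PrPmtA and PrPmtB, with adjusted p of 0.28 or more by limma. In PrPmtB the call was lost when any 1 of 20 arrays was left out (10 WT, 8 PrPmtB and 2 PrPmtA), and in PrPmtA when 1 was (the WT brainstem/midbrain young replicate 1), while the values stayed between 0.25 and 0.34. Without the brainstem/midbrain arrays the values were 0.32 and 0.28 (adjusted p = 0.258 and 0.27), and without the 28-month PrPmtA arrays 0.34 and 0.29 (adjusted p = 0.0226 and 0.0897). With shared array codes as a random block neither line was called (limma, adjusted p = 0.126 and 0.278), and without the 5 arrays of high Gapdh control signal PrPmtB was not (0.25, adjusted p = 0.366).

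No member was called for genotype within a region by limma, against 0.848% of probe sets and 0.511% of genes called in at least 1 of the 6 comparisons. At an unadjusted p under 0.05, 16 members appeared in at least 1, against 34.9% of probe sets. The smallest adjusted p was that of Rab34, a Rab of lysosome position and cilia, lower by 0.47 in PrPmtB cerebellum (SE 0.14, adjusted p = 0.0775).

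The age change differed between a transgenic line and WT for 1 member (1.69%, against 3.78% of probe sets and 2.69% of genes). Rab33b, a Golgi Rab that also acts in autophagy, went from 9.35 and 9.42 on young WT brainstem/midbrain arrays to 9.75 to 10.10 (median 9.91) on old ones, but in PrPmtA from 9.83 and 10.03 to 9.69 to 9.93. WT rose by 0.54 (SE 0.12), PrPmtA was at -0.13 (SE 0.13, not called), and the difference of -0.67 was called, although its adjusted p was 0.11 by limma. The call was lost when any 1 of 8 arrays was left out (5 PrPmtA, 2 PrPmtB and 1 WT), without the 28-month PrPmtA arrays (-0.71, adjusted p = 0.111) and without the 5 arrays of high Gapdh control signal (-0.68, adjusted p = 0.214). At an unadjusted p under 0.05, 15 members appeared in at least 1 of the 6 comparisons, against 41.1% of probe sets.

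The age change differed between regions for 21 members (35.6%, against 42.6% of probe sets and 41% of genes), but for 5 without the 8 arrays of high Actb control signal. The largest by size was that of Rab36, whose change in striatum and in brainstem/midbrain differed from that in cerebellum by -1.13 (SE 0.32) and -1.001 (SE 0.30) (limma, adjusted p = 0.0287 and 0.0169), neither being called without those 8 arrays (-1.03 and -0.95). Rab36 was at 6.55 to 7.10 on young and 5.69 to 6.64 on old striatum arrays, and at 3.29 to 4.23 on young and 3.30 to 5.34 on old cerebellum arrays. On its second probe set the sign turned (0.32 and 0.40, not called). The change of Rab1b in striatum minus that in brainstem/midbrain was -0.94 (SE 0.28, adjusted p = 0.00728), and that of Rab26 was -0.86 (SE 0.29, adjusted p = 0.0166). The Rab26 call was lost without any 1 of 3 arrays (WT young replicate 1, PrPmtA young replicate 2 and PrPmtB young replicate 2 of brainstem/midbrain) and the Rab1b call without the 8 arrays of high Actb control signal (-0.64). The changes of Rab31 and Rab33a lay higher in striatum than in cerebellum, by 0.63 and 0.50 (SE 0.15 and 0.14, adjusted p = 0.00963 and 0.024). The Rab31 difference turned to -0.66 on its second probe set, which was not called. For Rab8a and Rab12 the change in striatum minus that in brainstem/midbrain was -0.53 and -0.59 (SE 0.14 and 0.16).

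The proteins that load, switch and read Rabs were described from 4 fixed lists. Of 6 measured genes of GDP dissociation and prenylation, striatum minus cerebellum was called higher for 1 and lower for 2, where 41.4% of all genes were called higher and 27.5% lower. Of 34 exchange factors the counts were 6 and 14, of 39 GTPase activating proteins 14 and 12, and of 48 effectors 20 and 14. Rin1, a Rab5 exchange factor, was higher in striatum by 5.68 than in cerebellum and by 5.67 than in brainstem/midbrain (limma, adjusted p = 6.7e-36 and 2.8e-35). The motor Myo5b, a Rab11 effector, was higher in striatum by 6.06 than in cerebellum, and Lrrk2 by 1.37 (adjusted p = 5.16e-13). Among effectors of Rab27, Exph5 was lower in striatum than in cerebellum by 4.47 and Sytl2 higher by 1.63.

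The lists were also counted for age, where 7.1%, 9.15% and 7.65% of all genes were called higher in all 3 lines of striatum, brainstem/midbrain and cerebellum and 17.2%, 3.16% and 12.5% lower. In striatum, brainstem/midbrain and cerebellum the exchange factors called higher were 1, 2 and 2 of 34 and those called lower 1, 3 and 3. GTPase activating proteins gave 2, 0 and 7 of 39 higher and 0, 0 and 1 lower, and effectors 1, 1 and 3 of 48 higher and 1, 3 and 1 lower. Genes of GDP dissociation and prenylation gave 1, 1 and 1 of 6 higher and 1, 0 and 1 lower. Values of the genes named next are averages over the lines, which do not require a call in each line. Mon1a, part of the exchange factor for Rab7, rose in all 3 regions, by 0.49, 0.88 and 0.65 over the lines (limma, adjusted p = 0.000306, 6.98e-09 and 1.72e-06). Rabac1, which binds prenylated Rabs, also rose in all 3, by 0.88, 0.78 and 0.77, and Dennd6b, an exchange factor for Rab14, fell by 0.47, 1.07 and 0.98. Rbsn, a Rab4 and Rab5 effector, rose by 1.02, 0.87 and 0.63, and the Rab5 effector Eea1 fell by 0.62 in brainstem/midbrain (adjusted p = 6.3e-05). Rph3a, the Rab3 effector rabphilin, rose by 0.64 in striatum and 0.93 in cerebellum (adjusted p = 0.0113 and 7.67e-05). For genotype, no gene of the 4 lists was called in both lines.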

How the data were processed

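The authors hybridised RNA of the 3 brain regions to 54 Affymetrix whole-genome mouse arrays. The deposited values are log2 signals, 1 per probe set, which the authors had already normalized. The paper's methods name RMA in R with the Affy and Limma packages, and the submitters' processing notes name GCRMA; which was used is not settled. Values ran from 0.99 to 14.92 and array medians from 3.46 to 3.63 in young and 3.38 to 3.47 in old arrays. Array series and shared array codes were read from the array codes in the labels; the study's precision is limited by its number of arrays.

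From these values, limma 3.58.1 (R 4.3.3) fitted 18 group means to 45037 probe sets (64 array controls were left out). Comparisons of region, age, genotype and their differences were called with decideTests, method nestedF, at a false discovery rate of 0.05, as in the study's methods, and p-values within a comparison were adjusted by Benjamini-Hochberg. Probe sets were named from the platform annotation, updated through the RefSeq table; 34958 had 1 gene, 932 several and 9211 none. The 59 members, the pathway and marker lists and the tests were chosen with earlier results of these data known. Named were members called in both lines for genotype, Rab4a and Rab36 (known from earlier results), up to 5 highest and 5 lowest called members of each region comparison, up to 5 rising and 5 falling with age in all 3 lines of a region, up to 6 by size called in an interaction or in genotype within a region, and a list of synaptic vesicle, endosomal, secretory and Parkinson's disease Rabs. Other members and the genes of the pathway lists named in the text were chosen after their values were seen. The procedure was tested on simulated data with independent noise and few changed probe sets. In the real data 78.6% of probe sets were called for region and 64.7% for age, so the recovered shares may not carry over. A log2 change of 0.5 was recovered for 73.7% of changed probe sets for striatum against cerebellum, 42.2% for age in all 3 lines of brainstem/midbrain and 79.3% for genotype in both lines. For genotype within regions (PrPmtA striatum), age by line (PrPmtA brainstem/midbrain) and age by region (striatum against cerebellum) it was 40.6%, 33.9% and 37.9%. At a change of 1 these last were 75%, 48.6% and 80.5%, so an absent call there leaves room for changes of such size. Alternatives covered the probe sets tested, the calling method, normalization, shared array codes as a random block, array series, sex, the second probe set, left-out arrays (single ones, and those of high control 3′ minus 5′ signal) and separate fits. Where labels do not say that arrays came from separate animals, p-values measure only the spread between these samples.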

Additional observations from a re-analysis of the deposited data

Results flagged for a closer look

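Of 78 checks of 13 Rab members in the 6 groups of 4 to 6 arrays, 2 found 1 array far from the rest of its group, where chance gives about 1 in 20. For Rab4a the WT cerebellum old replicate 1 (22 months) was at 10.17 against 9.84 to 9.96 on the other 5 arrays. For Rab14 the PrPmtB cerebellum old replicate 4 (20 months) was at 12.41 against 12.20 to 12.22 on the other 3.

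The age change of several members differed between regions by limma's test of the difference. It lay lower in striatum and in brainstem/midbrain than in cerebellum for Rab36 (-1.13 and -1.001), and lower in striatum than in brainstem/midbrain and in cerebellum for Rab1b (-0.94 and -0.80). For Rab26 it was lower in striatum than in brainstem/midbrain (-0.86) and higher in brainstem/midbrain than in cerebellum (0.70), as it was for Rab42 (0.72). For Rab31 it was higher in striatum and in brainstem/midbrain than in cerebellum (0.63 and 0.47), and for Rab33b likewise (0.30 and 0.42). The age change of Rab33b in brainstem/midbrain also differed between PrPmtA and WT (-0.67). Several of these calls were lost when single arrays were left out: any 1 of 3 for Rab1b against cerebellum, of 3 and 14 for the 2 differences of Rab26, of 4 for Rab42, of 4 for Rab33b in striatum against cerebellum, and of 8 for Rab33b between lines.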

How the results depend on the processing

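Only the 38 members with a second probe set could be read on it. Of these, 21 were called between striatum and cerebellum, 16 between striatum and brainstem/midbrain and 19 between brainstem/midbrain and cerebellum. On the brightest set 24, 23 and 27 of the same members were called, and 38 each of all 59. In the next counts the brightest-set values in brackets are over all 59 members, of which 21 had 1 probe set only. The second set gave 2 members for age in brainstem/midbrain (against 11), 0 for genotype in both lines (against 1), 2 for genotype within regions (against 0), 0 for age by line (against 1) and 9 for age by region (against 21). It turned the sign of Rab27b between striatum and brainstem/midbrain (0.13), of Rab31 with age in striatum (-0.076, -0.62 and -1.33 in WT, PrPmtA and PrPmtB) and of Rab7 in PrPmtB striatum (-0.29). It also turned Rab3a in brainstem/midbrain (-0.26, -0.23 and -0.0026) and in WT and PrPmtA cerebellum (-0.35 and -0.050), Rab14 in cerebellum (0.42, 0.55 and 0.56), and the differences between regions of the age change of Rab36 (0.32 and 0.40) and Rab31 (-0.66 and -0.30). The cause was not tested.

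Calling each comparison separately left 2, 3 and 2 members for age in striatum, brainstem/midbrain and cerebellum (against 6, 11 and 5), 0 in all 9 comparisons (against 2), 0 for genotype in both lines and 0 for age by line. Testing only the 22518 brightest probe sets, or taking shared array codes as a random block (consensus correlation 0.136), gave 0 for genotype in both lines and 0 for age by line. With old arrays of the third series only there were 4 for age in brainstem/midbrain, 0 for genotype in both lines, 1 within regions, 0 for age by line and 7 for age by region. Separate fits for each region gave 6 for age in brainstem/midbrain, 0 in all 9 and 0 for age by line, and leaving out the 28-month PrPmtA arrays gave 0 for age by line. Chosen after seeing the data, old brainstem/midbrain arrays of 20 to 22 months only gave 8 members called alike in WT and PrPmtA (against 13), and leaving out all brainstem/midbrain arrays gave 0 for genotype in both lines. Also chosen after seeing the data, leaving out the 5 arrays of high Gapdh 3′ minus 5′ control signal gave 3 for age in brainstem/midbrain, 0 for genotype in both lines and 0 for age by line, and leaving out the 8 of high Actb signal gave 3, 0 and 0 and also 5 for age by region. Sex as a covariate and a term for the second against the third array series left all 98 single values of members on their side of the threshold, and quantile normalization 97 of 98. Sex was entered as labelled, so the 28-month PrPmtA arrays counted as female despite their Y-linked signal.

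Leaving out 1 array at a time gave 6 to 11 members for age in brainstem/midbrain (6 without PrPmtA young replicate 2 or PrPmtB young replicate 1) and 3 to 6 in cerebellum (3 without PrPmtB old replicate 1, old replicate 2 or young replicate 2). It gave 0 to 2 for genotype in both lines (0 without any 1 of 19 arrays, 2 without the WT striatum young replicate 2), 0 to 1 for genotype within regions (1 without any 1 of 4 WT arrays) and 0 to 3 for age by line (0 without any 1 of 8 arrays). No paired analysis was possible because the labels give no replicate numbers to pair lines or ages by; array codes shared between regions served as the block above. The number of arrays, 2 in many groups, limits the precision.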
